A study of Mus musculus with 4 samples.

Results

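The genes of the proteasome were examined in the transcriptome of mouse brain septal tissue. The members were chosen by gene symbol: every listed gene whose symbol starts with Psma, Psmb, Psmc, Psmd, Psme, Psmf or Psmg, leaving out the immunoproteasome subunits Psmb8, Psmb9 and Psmb10. This took 44 of 15409 listed genes. The rule used no measured value, but earlier results of these data were known when the members were chosen. All 44 were abundant enough to be tested. Of these, 43 encode proteasome subunits, regulators or assembly factors. Psmc3ip, taken by its symbol, encodes a cofactor of meiotic recombination and is no proteasome protein.

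The study set TCRb-/- mice, which have no T cell receptor beta chain, against wild-type (WT) mice, with 2 libraries per genotype. Each library pooled the septal tissue of several mice, so a replicate is a pool and not an animal. All mice of both genotypes had been restrained for 30 min on each of 3 days, and tissue was taken 1.5 h after the final restraint, so the data hold no unstressed group. Each genotype had 1 library in experiment 1 and 1 in experiment 2, which the labels give as a batch. The labels give the genotype only as TCRb-/-, and no source used here gives strain, age or sex. RNA was taken from a lysate cleared of nuclei and debris.

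The proteasome degrades proteins tagged with ubiquitin. Its 20S core is a barrel of outer alpha rings and inner beta rings, and the beta subunits encoded by Psmb5, Psmb6 and Psmb7 cut the substrate. The 19S regulator caps the barrel: a ring of ATPases (Psmc genes) unfolds the substrate, and non-ATPase subunits (Psmd genes) bind ubiquitin and remove it. Activators (Psme genes) open the barrel without the 19S regulator, Psmf1 encodes an inhibitor, and chaperones such as those of the Psmg genes assemble the rings without being part of the finished particle. In cells exposed to interferon, Psmb8, Psmb9 and Psmb10 replace the constitutive cutting subunits and yield more peptides suited to antigen presentation. In neurons the proteasome takes part in protein turnover at synapses.

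The libraries held between 19988137 and 26210790 reads. Values are given as CPM (the reads of a gene scaled to a common library total), and 1 read was worth between 0.0382 and 0.05 CPM. Trbc2, the targeted constant segment, had 169 and 86 reads in the WT libraries. In TCRb-/- it had 0 reads in either library. A count of 0 was taken to allow up to 3 reads, which is 0.122 and 0.150 CPM there. The upper limits of its exact 95% counting intervals were 0.150 and 0.185 CPM. The neuron markers Snap25, Rbfox3, Syt1 and Stmn2 summed to between 4737 and 5192 CPM, and the septum markers Zic1, Zic2, Zic4 and Trpc4 to between 105 and 149 CPM. With 2 libraries against 2, the smallest p that exact permutation of 1 gene's values can reach is 0.333. All tests therefore come from limma fitted on log2(CPM + 1) across 13912 genes, or across the 13552 with a transcript length where a trend on length was removed, with a threshold of 0.05 on the adjusted p. In bulk tissue, fewer cells of a type and less RNA per cell cannot be told apart.

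The level of each member was described first, per kilobase of transcript so that genes could be compared. The members' median level was 112.6 CPM per kb, against 6.38 for all listed genes with a transcript length. Together they took between 0.784% and 0.916% of the reads of a library. By subcomplex, the median was 181 CPM per kb in the 20S beta ring, 165 in the 19S ATPases, 118 in the 19S non-ATPases and 111 in the 20S alpha ring. This order held for transcript length and not for coding length, given below. The factors that are not part of the finished particle lay lower, with medians of 45.1 for the 19S chaperones and 33.9 for the 20S chaperones. The activators had a median of 63.6, and the inhibitor gene Psmf1 had 22.6 CPM per kb.

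Psmb6, which encodes the caspase-like cutting subunit, had the highest level of all members at 555 ± 64.7 CPM per kb (SD, n = 4 libraries). Psmc5, a 19S ATPase gene, came next at 396 ± 27.4, and Psma7, an alpha ring gene, followed at 382 ± 33.0. Psmc5 and Psma7 differed by less than their SDs. The lowest members were Psme4, which encodes the large activator PA200, at 2.26 ± 0.274 and Psmc3ip at 7.67 ± 0.372 CPM per kb, and these did not overlap in any library. These SDs span both genotypes and both experiments. When the coding length was used in place of the transcript length, the members' median was 168 CPM per coding kb, and 11 of 44 members moved by more than 5 places in the order. Psma2 rose from place 23 to 5 and Psma3 from 27 to 9. Psmd4 fell from 6 to 13 and Psmc1 from 9 to 16. The alpha ring, lowest of the core and 19S subcomplexes by median per transcript kb, was then the highest. Its middle gene Psma3 had 308 CPM per coding kb, and Psmb4, the middle gene of the beta ring, had 270.

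The members lie on 16 chromosomes, 9 of them on chromosome 11 and 0 on chromosome 6, where Trbc2 lies. All are protein-coding genes, placed here on GRCm38. Psmb5 (ENSMUSG00000022193.7) spans chr14:54614119-54618022 on the minus strand, Psmb6 (ENSMUSG00000018286.6) chr11:70525367-70527858 on the plus strand, and Psmb7 (ENSMUSG00000026750.6) chr2:38588036-38644087 on the minus strand.

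The genes of the 3 cutting subunits were not at equal levels. Per kilobase, Psmb6 was between 3.37 and 3.69 times Psmb5, which encodes the chymotrypsin-like subunit, over the 4 libraries. It was between 6.5 and 7.24 times Psmb7, which encodes the trypsin-like subunit. Each constitutive gene was then set against the immunoproteasome gene whose product replaces it. Psmb5 was between 66.3 and 97.2 times Psmb8 per kilobase, and Psmb6 between 382 and 831 times Psmb9. Psmb7 was only between 1.54 and 1.74 times Psmb10, so this pair was far closer in level than the other two. Psmb9 rested on few reads, with 21 and 25 in the WT libraries and 44 and 34 in TCRb-/-.

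Of the activators, Psme1 and Psme2 encode the subunits of the interferon-inducible PA28 ring, and Psme3 encodes the nuclear PA28-gamma. Per kilobase of transcript, Psme3 was between 1.08 and 1.39 times Psme1 and between 1.67 and 2.12 times Psme2. The gap was wider per coding kb, at 325 CPM for Psme3, 115 for Psme1 and 67.2 for Psme2. Psmd9 shares 25.5% of its exon bases with Gm26745, Psmc3ip 21.2% with Mlx, and Psmb7 11.8% with Nek6, each on the opposite strand. Psmb5 shares 12.1% with Mir686 on its own strand. In all, 12 members overlap an exon of another gene. The library kit does not keep the strand, so reads in these stretches cannot be assigned to 1 gene. Pseudogenes named after Psmb5, Psmb6 and Psmb7 exist in the annotation, 4 in all, and 0 of them were listed, so how their reads were counted is uncertain.

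**Figure D1:**
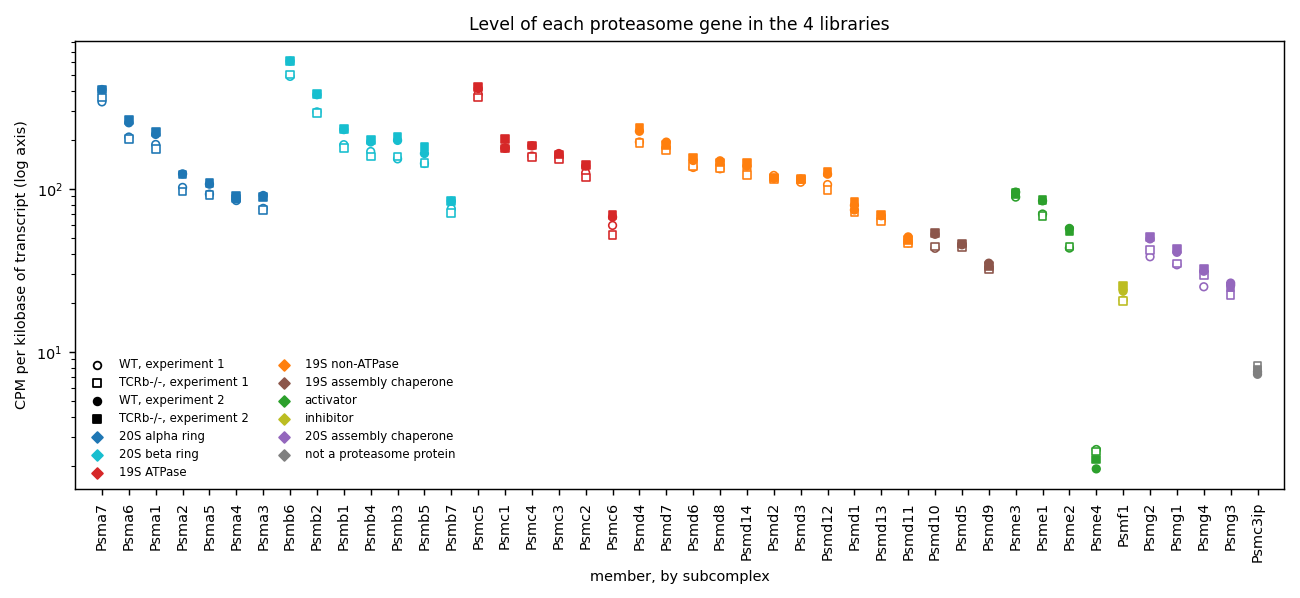
CPM per kilobase of transcript (log axis) for each of the 44 members, grouped by subcomplex and ordered by mean level within it. Circles are WT, squares TCRb-/-, open symbols experiment 1 and filled symbols experiment 2; the 4 symbols of a gene lie close together beside the span between genes, from 2.26 for Psme4 to 555 for Psmb6.

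The comparison the series was made for asks whether gene expression in the stressed septum depends on the T cell receptor beta chain. Between genotypes 0 of 44 members passed the threshold, in limma with genotype as the only term or with the experiment as a block. Of all 13912 genes, 0 (0%) passed without the block and 2 (0.0144%) with it. At an unadjusted p under 0.05 there were 0 members in either fit, against 43 and 784 of all genes. The median difference of the members, TCRb-/- minus WT, was -0.006 (log2), and single members ran from -0.13 to 0.14. Leaving out 1 library moved the median to between -0.11 (without TCRb-/- of experiment 2) and 0.12 (without TCRb-/- of experiment 1), and removing the trend on transcript length moved it to -0.03. The medians by subcomplex lay at 0.01 for the alpha ring, -0.01 for the beta ring, -0.02 for the ATPases and -0.01 for the non-ATPases. With the block, the 95% intervals of the 14 genes of the 20S core lay between -0.21 and 0.23, and those of all members between -0.37 and 0.41. A p that misses the threshold does not show equal levels, and these intervals give the differences that remain possible.

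The genes of the cutting subunits are given in every library, WT before TCRb-/- in each experiment. Psmb5 had 129 and 129.5 CPM in experiment 1 and 149 and 163 CPM in experiment 2. Psmb6 had 393 and 403 CPM in experiment 1 and 488 and 487 CPM in experiment 2. Psmb7 had 87.9 and 82.8 CPM in experiment 1 and 97.9 and 97.8 CPM in experiment 2. In all 3 genes both libraries of experiment 2 lay above both of experiment 1, whereas the genotypes overlapped. Their genotype differences were 0.07 (95% interval with the block -0.10 to 0.23) for Psmb5, 0.02 (-0.13 to 0.17) for Psmb6 and -0.04 (-0.21 to 0.13) for Psmb7.

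The members highest in TCRb-/- were assembly genes, Psmc3ip and an ATPase gene, none of them past the threshold. The SE of a genotype difference is that of the fit without the block unless stated, and so includes the difference between experiments. Psmg4, which encodes a chaperone of the alpha ring, had 13.9 CPM in WT and 16.4 in TCRb-/- in experiment 1, and 17.4 and 18.0 CPM in experiment 2. TCRb-/- was the higher in each experiment, but the genotypes overlapped across experiments. Its difference was 0.14, with an SE of 0.18 without the block and 0.12 with it (limma adjusted p with the block 0.915). Psmc3ip had 9.73 and 10.5 CPM in experiment 1 and 9.39 and 9.96 CPM in experiment 2, so that both TCRb-/- libraries lay above both WT libraries, with a difference of 0.09 (SE 0.17). Psmg2, another alpha ring chaperone gene, had 40.6 and 44.8 CPM in experiment 1 and 52.3 and 53.8 CPM in experiment 2, a difference of 0.09 (SE 0.18). Its libraries were ordered by experiment rather than by genotype. Psmc1 had 285 and 282 CPM in experiment 1 and 283 and 322 CPM in experiment 2, a difference of 0.08 (SE 0.13). Only the TCRb-/- library of experiment 2 stood above the others.

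At the other end was Psmg3, a further assembly chaperone gene. It had 22.7 CPM in WT and 19.7 in TCRb-/- in experiment 1, and 23.3 and 22.2 CPM in experiment 2. Both TCRb-/- libraries lay below both WT libraries, with a difference of -0.13, and an SE of 0.15 without the block and 0.10 with it (limma adjusted p with the block 0.911). Psmc6, an ATPase gene, had 134 and 116 CPM in experiment 1 and 150.3 and 154 CPM in experiment 2, a difference of -0.08 (SE 0.18). Psmd7, which encodes a lid subunit, had 285 and 273 CPM in experiment 1 and 307 and 296 CPM in experiment 2. Its difference was -0.06 (SE 0.12), with TCRb-/- the lower in both experiments and the genotypes overlapping across them. Psma2 had 298 and 281 CPM in experiment 1 and 361 and 358 CPM in experiment 2, a difference of -0.05 (SE 0.18).

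Each experiment also gives a genotype difference of its own, with 1 library against 1 and no test. The members' median was -0.02 in experiment 1 and 0.02 in experiment 2. The direction was the same in both experiments for 18 of 44 members, 10 higher and 8 lower in TCRb-/-, and for 51.6% of all genes tested. Both TCRb-/- libraries lay above both WT libraries in 2 members, Psma4 and Psmc3ip, and below them in 1, Psmg3. For all genes the shares were 9.76% and 8.04%. Psmd1, which encodes the scaffold subunit Rpn2 of the 19S base, differed in opposite directions. It had 247 CPM in WT and 223 in TCRb-/- in experiment 1, and 231 and 259 CPM in experiment 2, with log2 differences of -0.14 and 0.16. It was the 1 member whose counting intervals did not overlap in either experiment while the direction changed, which 3.08% of all genes did.

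**Figure D2:**
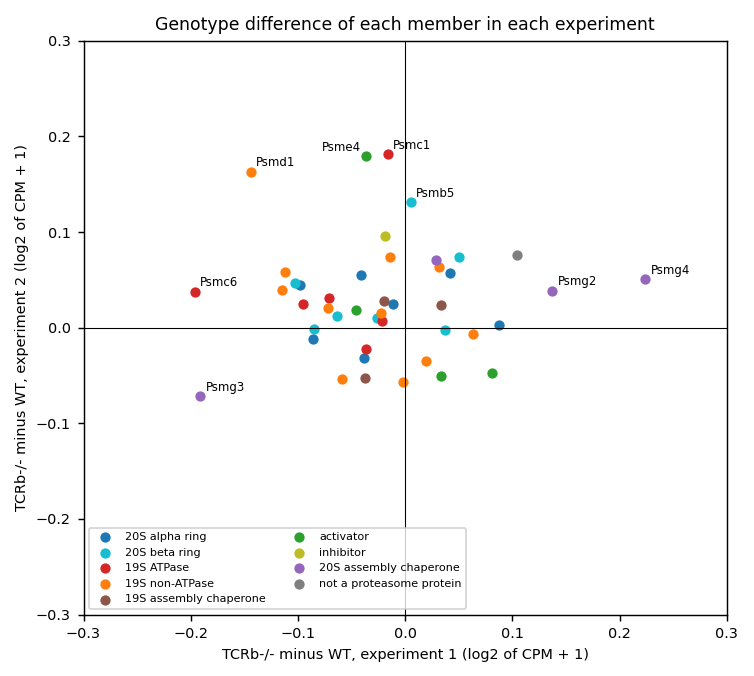
Genotype difference, TCRb-/- minus WT in log2(CPM + 1), of each of the 44 members in experiment 1 (horizontal axis) and experiment 2 (vertical axis), coloured by subcomplex, with members farther out named. Points lie in all 4 quadrants around 0, with 18 members in the 2 quadrants of equal direction, and Psmd1 at -0.14 and 0.16.

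The genes that interferon induces were set beside the constitutive ones. Psmb9 had 0.801 CPM in WT and 1.79 in TCRb-/- in experiment 1, and 1.12 and 1.70 CPM in experiment 2. TCRb-/- was above WT in both experiments without overlap, and the difference was 0.49 (limma with the block, SE 0.21, adjusted p 0.848, unadjusted p 0.0511). Psmb8 differed by 0.23 (SE 0.23) and Psmb10 by -0.05 (SE 0.19), and neither passed the threshold. The inducible activator genes Psme1 and Psme2 both stood at -0.01 (SE 0.17 and 0.20). Of these 5 genes, Psmb8 and Psmb9 lay above 0, and Psmb10, Psme1 and Psme2 just below it.

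The labels give the experiment as a batch, and the 2 experiments were compared with both genotypes on each side. Of 44 members, 41 were higher in experiment 2 by any amount, against 46% of all genes. limma called 22 members higher and 0 lower, against 8.95% of all genes called higher and 14.7% called lower. The median difference, experiment 2 minus experiment 1, was 0.21 (log2) for members and -0.03 for all genes, and members ran from -0.26 to 0.39. Both libraries of experiment 2 lay above both of experiment 1 in 35 members and below them in 1, Psme4, against 30.1% and 37.2% of all genes. With genotype as a further term, 18 members were called higher, all among the 22, against 9.29% of all genes. The 4 that no longer passed were Psma5, Psma7, Psmf1 and Psmg1, with limma adjusted p from 0.0516 to 0.0558. The change from experiment 1 to 2 had a median of 0.24 in TCRb-/- and 0.17 in WT.

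The 20S core held most of the calls. In the beta ring 6 of 7 genes were called higher (median 0.29), and in the alpha ring 6 of 7 (median 0.27). Of the 19S regulator 4 of 17 were called, with a median of 0.13: the ATPase genes Psmc4 and Psmc6, and the non-ATPase genes Psmd4, which encodes a ubiquitin receptor, and Psmd12, which encodes a lid subunit. The difference between 20S core and 19S regulator was not tested. Transcripts of the core genes were shorter, with a median of 1162.5 bases against 1785 for the 19S genes. With the trend on transcript length removed, 3 of 14 core genes were called (median 0.12) and 0 of 17 of the 19S (median 0.04). The median level of the 20S core per kilobase was 1.3 times that of the 19S regulator in TCRb-/- and 1.22 times in WT of experiment 1, and 1.42 times in both libraries of experiment 2. Outside these, Psmd10 of the 3 19S chaperones was called, as were the activator genes Psme1 and Psme2, the inhibitor gene Psmf1, and the chaperone genes Psmg1 and Psmg2.

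The members with the highest difference were 3 beta ring genes and an activator gene. Psmb3, a beta ring gene without a cutting site, had 117 CPM in WT and 122 in TCRb-/- in experiment 1, and 152 and 160.5 CPM in experiment 2. The lower library of experiment 2 was clear of the higher library of experiment 1, and the difference was 0.39 (SE 0.07, limma adjusted p 0.00876). Psmb2 had 256 and 251 CPM in experiment 1 and 326 and 329 CPM in experiment 2, a difference of 0.37 (SE 0.06, limma adjusted p 0.00827). Psmb1 had 329 and 315 CPM in experiment 1 and 408 and 411 CPM in experiment 2, a difference of 0.34 (SE 0.06, limma adjusted p 0.0101). Neither Psmb1 nor Psmb2 encodes a cutting subunit. Psme2 had 41.7 and 42.7 CPM in experiment 1 and 55.1 and 53.2 CPM in experiment 2, a difference of 0.35 (SE 0.08, limma adjusted p 0.0174). In all 4 genes the genotypes of an experiment lay close together and the experiments apart. Of the cutting subunits, Psmb6 differed by 0.29 (SE 0.06) and Psmb5 by 0.27 (SE 0.07), with limma adjusted p of 0.0157 and 0.0312. Psmb7 differed by 0.20 (SE 0.07) and did not pass (limma adjusted p 0.0731).

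The alpha ring forms the gate through which substrates enter. Its called genes ran from 0.21 in Psma7 to 0.34 in Psma6 (SE 0.06 each). Psma4 was the exception, with 99.0 and 102 CPM in experiment 1 and 101 and 106 CPM in experiment 2. Its experiments overlapped, and the difference was 0.04 (SE 0.07, limma adjusted p 0.684). Psmb4, the remaining beta ring gene, stood at 0.27 (SE 0.07, limma adjusted p 0.0255).

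In the 19S regulator the same direction was common but the differences were smaller in size. All 6 ATPase genes were higher by any amount, from 0.09 in Psmc1 and Psmc3 to 0.29 in Psmc6, and Psmc5, the most abundant of them, stood at 0.16 (SE 0.06, limma adjusted p 0.0973). Psmc5 had 504 and 479.6 CPM in experiment 1 and 545 and 557 CPM in experiment 2, without overlap. Of the non-ATPase genes, Psmd14, which encodes the enzyme that cuts ubiquitin off the substrate, had 204 and 189 CPM in experiment 1 and 213 and 222 CPM in experiment 2. Its difference was 0.15 (SE 0.07, limma adjusted p 0.144). The non-ATPase genes that did not pass ran from -0.01 in Psmd2 to 0.16 in Psmd6.

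The activator genes were divided. Psme1 had 78.1 and 75.6 CPM in experiment 1 and 94.1 and 95.3 CPM in experiment 2, a difference of 0.30 (SE 0.07, limma adjusted p 0.0187). Psme3 had 238 and 251 CPM in experiment 1 and 255 and 247 CPM in experiment 2, a difference of 0.04 (SE 0.06, limma adjusted p 0.705). Psme1 separated the experiments and Psme3 did not. Among the assembly genes, Psmg1 and Psmg2 stood at 0.27 and 0.31 and passed, and Psmg3 and Psmg4 stood at 0.10 and 0.21 with SEs of 0.11 and 0.12 and did not.

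The lowest members did not pass the threshold. Psme4 had 16.3 CPM in WT and 15.9 in TCRb-/- in experiment 1, and 12.4 and 14.2 CPM in experiment 2. Experiment 2 was below experiment 1 without overlap, with a difference of -0.26 (SE 0.12, limma adjusted p 0.150). Psmc3ip differed by -0.06 (SE 0.13), with its values given above, its experiments overlapping and its sign changed under quantile normalization. Psmd2, which encodes the scaffold subunit Rpn1, had 359 and 341 CPM in experiment 1 and 344 and 349 CPM in experiment 2, a difference of -0.01 (SE 0.06) that changed sign under median-of-ratios scaling. Psmd3, a lid subunit gene, had 237 and 247 CPM in experiment 1 and 248 and 246 CPM in experiment 2, a difference of 0.03 (SE 0.06). Psmd2 and Psmd3 were thus nearly level in the 4 libraries, with coefficients of variation of 2.21% and 2.16%, against a median of 8.94% over members and 12.1% over all genes.

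**Figure D3:**
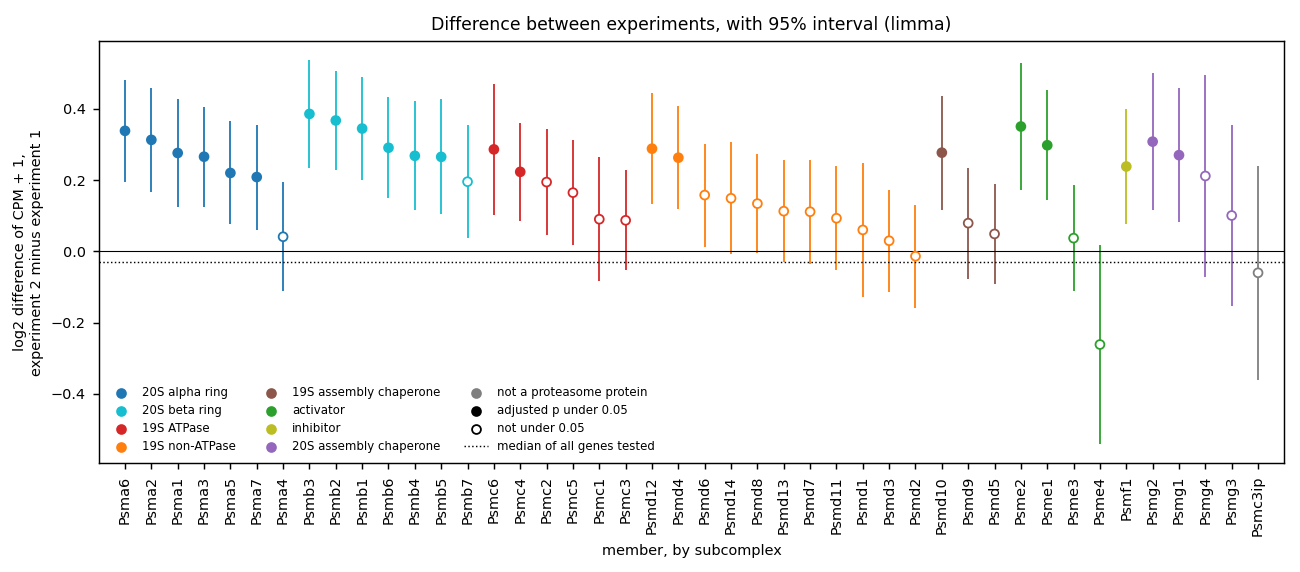
Difference between experiments, experiment 2 minus experiment 1 in log2(CPM + 1), for each of the 44 members by subcomplex, with 95% intervals from limma; filled points have an adjusted p under 0.05 and the dotted line is the median of all genes tested (-0.03). The 22 filled points all lie above 0 and 12 of them belong to the 20S core; Psme4 lies lowest at -0.26.

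Transcript length and tissue markers moved with the experiments as well. Members are short, with a median transcript of 1435 bases against 2886 for all listed genes with a transcript length. Across 13552 genes, the difference between experiments and length gave a Spearman rho of -0.455, with lower values for long genes, and across the 44 members it was -0.499. Genes share libraries and are not independent, so no p is given. Among members under 1500 bases, a limit set after seeing the data, 16 of 23 were called (median 0.26), and among longer ones 6 of 21 (median 0.11). All genes under 1500 bases had a median of 0.19, and longer ones -0.07. Of all genes, 549 of 2135 under 1500 bases and 661 of 11417 longer ones were called higher.

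With a smooth trend on length taken out of each library, the members' median fell from 0.21 to 0.09, and 5 members were called higher, against 6.09% of all genes. These were Psma2, Psma3, Psmb1, Psmf1 and Psmd5, which encodes a 19S chaperone, and the first 4 were also among the 22. By any amount 37 of 44 members were then higher, against 51.2% of all genes. The transcripts used for the 5 called members were long beside their coding part. Psma2 had 2911 bases with 702 coding, Psma3 2846 with 765 and Psmb1 1758 with 720. For Psmf1 they were 3809 with 813 and for Psmd5 4397 with 1512. How these calls depend on the transcript chosen for each gene was not tested. Psmf1 had 79.3 and 78.2 CPM in experiment 1 and 89.99 and 96.3 CPM in experiment 2, with a transcript of 3809 bases. Its difference went from 0.24 (limma adjusted p 0.0444) to 0.36 (0.0197) without the trend. Psmb3, with a transcript of 766 bases, went from 0.39 to 0.18 and no longer passed (limma adjusted p 0.0963). The number of members called also fell to 0 when limma moderated the spread without its trend on level, where 629 of all genes were called.

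Choroid plexus markers (Ttr, Folr1, Kl, Clic6, Kcnj13, Aqp1, Enpp2 and Otx2) were higher in experiment 2 in 8 of 8 genes. They summed to 1282 CPM in WT and 2100 CPM in TCRb-/- of experiment 1, and to 4115 and 6772 CPM in experiment 2. Striatum markers (Drd1, Adora2a, Ppp1r1b, Rgs9, Penk, Gpr6 and Pde10a) were lower in 7 of 7 genes, summing to 3241 and 3641 CPM in experiment 1 and to 1967 and 758 CPM in experiment 2. None of these markers was at 0 in any library. Oligodendrocyte markers summed to between 6866 and 8118 CPM, astrocyte markers to between 2018 and 2213, microglia markers to between 115 and 127, ependymal markers to between 99.0 and 153, and endothelial markers to between 3.00 and 4.96 CPM. Of 8 T cell markers 3 were listed, Cd4, Trac and Trbc2. The part of length and of tissue makeup in the members' difference between experiments was not tested beyond these values.

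The count of 22 also rested on single libraries, and it fell whichever library was left out. The count over all genes fell as well, except without WT of experiment 2. Such a fit leaves 1 sample in an experiment, so its counts are not compared further. The members' median stayed between 0.19 and 0.23.

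**Figure D4:**
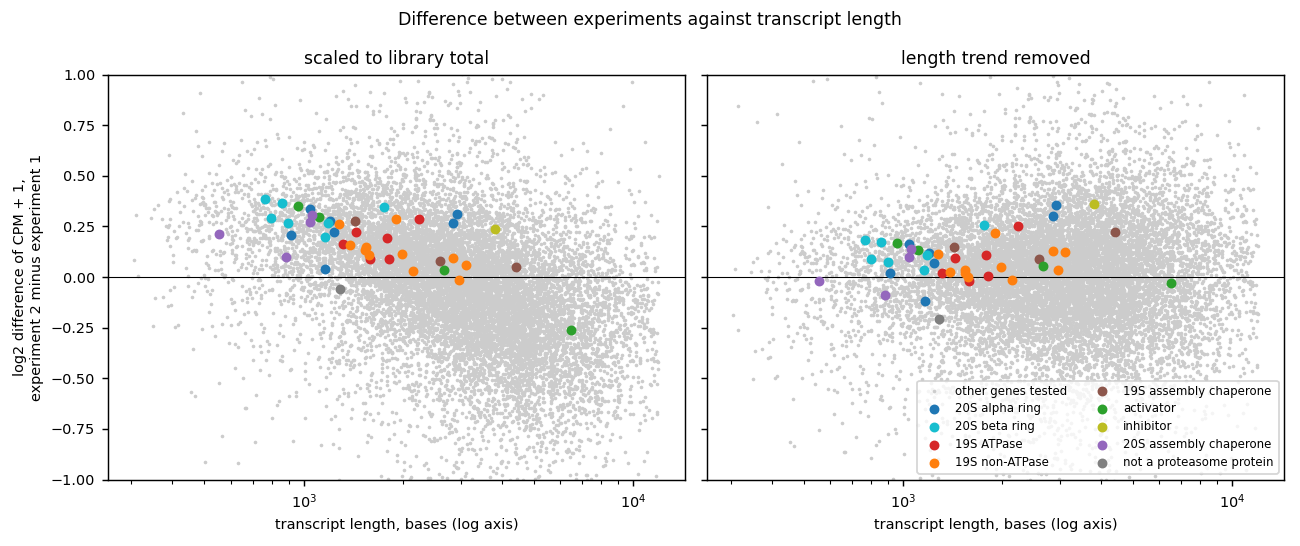
Difference between experiments (experiment 2 minus experiment 1, log2 of CPM + 1) against transcript length in bases (log axis), with values scaled to the library total on the left and with the length trend removed on the right; coloured points are the 44 members and grey points the other genes tested, of which 388 on the left and 355 on the right fall outside the axes. On the left members under 1500 bases other than Psmc3ip lie above 0 and Psme4, the longest, below it; on the right the members' median is 0.09.

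Stretches of promoter are shown for members called between experiments (Psmb3, Psmb5, Psmb6 and Psmd12) and for members not called (Psmc2 and Psme4). Psmc2 and Psme4 also separated the experiments without overlap, in opposite directions, so no member that was level between experiments is shown. Each is the last 120 bases before a transcript start, from RefSeq on GRCm38.p6, read 5' to 3' on the strand of the gene. Capitals mark TGACNNNGC, the core of the antioxidant response element to which Nfe2l1 binds, CCGGAAG, the core of an ETS factor site, and CCAAT, the CCAAT box. A motif on the opposite strand appears as its reverse complement. RefSeq and GENCODE place some starts apart, so the end of a stretch can lie inside the GENCODE gene model.
Psmb5 (chr14:54617996-54618115, minus strand): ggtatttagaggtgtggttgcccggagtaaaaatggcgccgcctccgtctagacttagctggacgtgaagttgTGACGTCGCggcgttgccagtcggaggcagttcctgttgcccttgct
Psmb6 (chr11:70525237-70525356, plus strand): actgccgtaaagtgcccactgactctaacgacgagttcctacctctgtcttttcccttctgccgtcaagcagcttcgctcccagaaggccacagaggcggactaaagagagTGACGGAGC
Psmb3 (chr11:97703314-97703433, plus strand): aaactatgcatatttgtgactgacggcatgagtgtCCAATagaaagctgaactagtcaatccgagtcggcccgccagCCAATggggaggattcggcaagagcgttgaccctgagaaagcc
Psmc2 (chr5:21785155-21785274, plus strand): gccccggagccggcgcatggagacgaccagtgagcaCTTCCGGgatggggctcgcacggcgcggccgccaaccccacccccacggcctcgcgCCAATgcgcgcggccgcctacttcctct
Psmc2, second start (chr5:21786627-21786746, plus strand): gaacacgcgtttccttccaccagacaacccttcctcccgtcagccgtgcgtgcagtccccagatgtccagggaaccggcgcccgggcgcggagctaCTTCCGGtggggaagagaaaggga
Psmd12 (chr11:107479408-107479527, plus strand): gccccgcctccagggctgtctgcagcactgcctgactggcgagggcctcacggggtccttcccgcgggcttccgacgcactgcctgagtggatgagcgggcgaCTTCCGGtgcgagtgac
Psme4 (chr11:30771655-30771774, plus strand): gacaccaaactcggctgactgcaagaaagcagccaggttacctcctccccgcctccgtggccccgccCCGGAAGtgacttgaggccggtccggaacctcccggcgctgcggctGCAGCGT
Psmb5 and Psmb6 each hold the antioxidant response element core, with its first base at -47 and at -9. Psmb3, the member with the highest difference, holds the CCAAT box at -85 and -43 and neither other motif. Psme4, the lowest, holds the ETS core at -53 and an antioxidant response element core whose last letters lie past the stretch shown. The antioxidant response element core of Psmd12 lies farther upstream, at -247.

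The 3 motifs were searched on both strands in windows from 250 bases before to 50 bases after the start. Of the members, 37 of 44 had such a window. Psmb1, Psmb2, Psmb7, Psmc3, Psmd3, Psmd7 and Psmg2 had none. TGACNNNGC was found in 6 of 37 members (16.2%), namely Psmb5, Psmb6, Psmc6, Psmd9, Psmd12 and Psme4, against 12.4% of all 32851 windows and 16.9% of genes tested. CCAAT was found in 13 of 37 (35.1%), against 37.4% of windows and 42.7% of genes tested. CCGGAAG was found in 15 of 37 (40.5%), against 8.86% of windows and 18.3% of genes tested. It lay in 9 of 14 members of the 19S regulator and in 1 of 11 of the 20S core, Psma6. CCGGAAG and CCAAT were chosen after the data had been seen. Among the 19S genes, the median difference between experiments was 0.16 with CCGGAAG and 0.15 without it. A match is a description of the letters and not a bound site.

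Other genes of the pathway were taken from a list, of which 27 are reported here, all of them listed and tested. By genotype 0 of 27 passed the threshold, with or without the block. Between experiments 7 of 27 were called higher and 2 lower in limma, with a median of 0.10, against the 8.95% of all genes called higher and 14.7% called lower. The higher ones included the ubiquitin genes Ubb and Rps27a, at 0.41 and 0.42. Also higher were Usp14 (0.47), which encodes a ubiquitin protease bound to the 19S regulator, and Txnl1 (0.50), which encodes a redox protein bound to it. Vcp (0.42), which encodes the segregase that unfolds ubiquitin-tagged proteins, was higher too, as was Pomp (0.26), whose product assembles the 20S core. Shfm1, which encodes a small 19S subunit not taken by symbol, stood at 0.29. Adrm1, which encodes another such subunit, stood at 0.19 and did not pass (limma adjusted p 0.0760). Of the immunoproteasome genes, which are counted apart from the 27, Psmb10 was called higher at 0.33 (SE 0.08, limma adjusted p 0.0219).

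With the length trend removed, 5 of the pathway genes were called higher, against 6.09% of all genes. They were Ubb, Uba1, Usp14, Txnl1 and Vcp. Rps27a, at 0.22 (limma adjusted p 0.105), and Pomp, at 0.15 (limma adjusted p 0.153), no longer passed. Psmb10, at 0.19 (limma adjusted p 0.158), did not pass either. Shfm1, Ufd1l and AI314180 of the list had no transcript length and were not in that fit.

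The pair called lower were Ubqln4, a shuttle gene (-0.43), and Nfe2l1, which encodes the transcription factor that raises proteasome genes when the proteasome is impaired. Ubqln4 still passed with the length trend removed, at -0.34 (limma adjusted p 0.0260). Nfe2l1 had 222 CPM in WT and 239 in TCRb-/- in experiment 1, and 146 and 159.9 CPM in experiment 2. Both libraries of experiment 2 were lower, with a difference of -0.59 (SE 0.07, limma adjusted p 0.00515), and with the length trend removed it still passed (limma adjusted p 0.00732). The members called between experiments and Nfe2l1 stood in opposite directions, and a link between them was not tested. The related factor gene Nfe2l2 differed by 0.10 (SE 0.12) and Ngly1, whose product processes the Nfe2l1 protein, by 0.03 (SE 0.07). Neither passed the threshold.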

How the data were processed

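RNA from pooled septal tissue of 2 TCRb-/- and 2 WT groups of mice was sequenced from an ultra-low-input library kit that does not keep the strand, per the labels' protocols. The submitters' processing notes name HISAT2 2.1.0, SAMtools 1.3, HTSeq 0.9.1, R 4.0.5, limma 3.46.0 and build mm10, without their roles. The annotation is not given in the sources used here, nor is the filter on rows. The deposited values are log2 of CPM, with 0.5 added to the reads and 1 to the library total, as solved from the values. Whole reads were recovered for 100% of values within 0.001 reads. Of 15426 rows, 17 were spike-in RNAs and were left out, which leaves 15409. The listed rows took between 97.6% and 97.8% of the reads. Replicates 1 and 2 totalled 24585868 and 19988137 reads in TCRb-/- and 26210790 and 22358674 reads in WT. A count of 0 allowed up to 3 reads. Counting intervals were exact (Clopper-Pearson, 95%), and they and the floors cover counting error only, since amplified reads are not independent molecules.

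Genes averaging 1 CPM or more were tested on log2(CPM + 1), a scale that understates changes of low genes, with limma 3.58.1 in R 4.3.3 (empirical Bayes with a trend on level, two-sided, Benjamini-Hochberg over all 13912 genes). Genotype or experiment was the only term. The labels do not say whether pools shared animals or litters, so p-values measure the spread between these pools. Length was that of the transcript with the longest coding sequence of each gene in GENCODE vM21, and its trend was a loess curve of span 0.3. The fits were run on simulated data in which only genes given a set change differed between groups. These data held no difference between experiments in the genotype fit, so they do not show how it behaves with one. The other steps used matplotlib 3.10.9, scipy 1.17.1, pandas 2.3.3 and numpy 2.4.6 under Python 3.11.15. The labels give the replicate number as the experiment, so the numbers pair the libraries, and libraries of the same number deviated together from their genotype means (correlation across genes 0.72).

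The members and lists were chosen with earlier results of these data known. Given in every library were Psmb5, Psmb6 and Psmb7 and, in each comparison, the 4 highest and the 4 lowest members. Psmd1, Psmf1, Psma3, Psma4, Psma6, Psmd5 and the members counted singly were named after their values were seen. The alternatives were quantile normalization, median-of-ratios scaling, a stricter filter (10 CPM) or none, pseudocounts of 0.1 and 5, removal of the length trend, moderation without a trend, voom weights, the block, and leaving out each library. A protein table was not used here, so no residues are shown. Some genes of the pathway and marker lists are not reported here and were left out of the lists' counts and sums.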

Additional observations from a re-analysis of the deposited data

Results flagged for a closer look

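Psmd1 moved one way in experiment 1 and the other in experiment 2, at -0.144 and 0.163 (log2, TCRb-/- minus WT), each beyond its counting interval. Each experiment has 1 library per genotype, and the difference between them was not tested.

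The 17 spike-in rows, which no comparison used, held reads in every library. They summed to 193.7 CPM in TCRb-/- replicate 1, 159.8 CPM in TCRb-/- replicate 2, 244.06 CPM in WT replicate 1 and 174.8 CPM in WT replicate 2. No source used here gives the amounts added, so they were not used for scaling.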

How the results depend on the processing

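Between genotypes, 2 of all genes passed with the replicate block and 2 with the replicate block with the length trend removed, against 0 without it. The block changed the call of no member by genotype. Between experiments, all genes called numbered 1785 with the length trend removed and 629 without a trend in moderation, and the members called 5 and 0. The members' median was 0.094 with the length trend removed. Of all calls between experiments 37.8% were higher, and 50.6% under quantile normalization. The members' median level was 168 CPM per kb of coding length, an alternative chosen after seeing the data.

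With the length trend removed, these differences changed sign: Psmb6 by genotype (-0.0037, with or without the replicate block), and between experiments Psma4 (-0.12), Psmc1 (-0.019), Psmd2 (0.036), Psmd3 (-0.013), Psmg3 (-0.091), Psmg4 (-0.022) and Psmb9 (-0.044). Psmc3ip changed sign under quantile normalization (0.025) and Psmd2 under median-of-ratios scaling (0.019). The cause was not tested.

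Leaving out 1 library leaves 1 sample in a group, assumed to vary like the other group, and unbalances the design. Ranges were then 0 to 47 genes by genotype, 1406 to 3390 genes between experiments and 6 to 14 members between experiments. The members' median by genotype ranged from -0.11 to 0.12. Between experiments the differences that changed sign ranged from -0.22 to 0.41 for Psmb9, from -0.00041 to 0.18 for Psmc1, from -0.021 to 0.14 for Psmd1, from -0.050 to 0.023 for Psmd2, from -0.0019 to 0.062 for Psmd3 and from -0.0031 to 0.078 for Psme3. For the genes singled out in the genotype comparison, the only ones recomputed this way by genotype, those that changed sign ranged from -0.22 to 0.13 for Psma2, from -0.25 to 0.16 for Psmb10, from -0.096 to 0.23 for Psmb5, from -0.14 to 0.17 for Psmb6, from -0.16 to 0.075 for Psmb7, from -0.012 to 0.18 for Psmc1, from -0.28 to 0.12 for Psmc6, from -0.097 to 0.12 for Psmd1, from -0.11 to 0.00057 for Psmd7, from -0.18 to 0.15 for Psme1, from -0.20 to 0.19 for Psme2, from -0.091 to 0.27 for Psmg2 and from -0.012 to 0.29 for Psmg4. Depth limits Psmb9, with between 21 and 44 reads per library.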
